A study of Glycine max with 6 samples.

Results

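The O-methyltransferases of the soybean seed coat were followed through 5 probe sets of the Affymetrix Soybean GeneChip, out of 37641 that represent soybean transcripts. GmaAffx.57777.1.S1_at stands for OMT5, annotated as a caffeoyl-CoA O-methyltransferase, and Gma.9647.1.S1_at stands for OMT-like, a putative O-methyltransferase. The 3 others, Gma.1034.3.S1_at, Gma.1034.3.S1_a_at and Gma.11082.1.S1_at, are all the probe sets whose only gene symbol is SOMT-9. OMT5 and OMT-like were chosen by the study for their higher signals in the black seed coat, on the same plants that are described here. Their difference between the genotypes is therefore given as a description, with no test. The study also found both differentially expressed by semi-quantitative RT-PCR. By qRT-PCR it reported little OMT5 transcript in the brown coat at any stage of seed development. The SOMT-9 probe sets entered by their symbol, and the difference was tested for them.

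Seed coats of the black (iRT) soybean of the variety Clark were set against those of its nearly isogenic brown (irT) line. Both lines share the recessive i allele and the dominant T allele, and they differ at the R locus, which controls whether the pigmented coat is black or brown. The plants were untreated and grew in a growth cabinet, and their seed coats were taken when the seeds passed from growth to maturation (the transition stage). RNA from 3 black and 3 brown plants was hybridized to 6 arrays, 1 for each plant, and each genotype is represented by 1 inbred line.

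O-methyltransferases move a methyl group from S-adenosylmethionine to a hydroxyl group of a small molecule. In plants they fall into a class of small enzymes that need a divalent cation, to which the caffeoyl-CoA O-methyltransferases belong, and a class of larger enzymes that do not, to which most flavonoid, isoflavone and caffeic acid O-methyltransferases belong. Caffeoyl-CoA O-methyltransferases are best known from lignin synthesis, and SOMT-9 of soybean is known as a flavonoid 3'-O-methyltransferase. In coloured tissues, methylation of the B-ring turns cyanidin into peonidin and delphinidin into petunidin, and it shifts the hue of the pigment towards red. In the study, recombinant OMT5 methylated a cyanidin glucoside to the peonidin glucoside in vitro.

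The study designed primers for the transcripts of the OMT5 and OMT-like probe sets, and 4 of them are shown here. Their translations were set against the protein of OMT5 only, and no coding sequence of OMT-like was used. Each is written 5′ to 3′, and capitals mark the codons whose translation lies in the 167-residue conserved O-methyltransferase stretch of OMT5.
OMT2F, forward, for OMT5: cCTCACTGCACTTACCATTcc
OMT2R, reverse, for OMT5: tcTTTATCGGCATCAACGAA
OMTF, forward, for OMT-like: tttgttgaaagccagtgcag
OMTR, reverse, for OMT-like: tTTTGCCTTTGTTGATGCTg
All 24 reading frames of the 4 primers were set against the stretch, and 3 of them were found in it. OMT2F encoded residues 83 to 88 of the stretch, and the complement of OMT2R encoded residues 148 to 153. Read without a gap, the outer ends of this pair lie 216 bases apart in the coding sequence of OMT5. OMTR, which is listed as a reverse primer, encoded residues 146 to 151 of OMT5 on the strand as written and not on its complement. Over the 4 residues that OMTR and OMT2R both cover, 10 of 12 bases were the same. OMTF matched the stretch in no frame, which says only that these letters do not encode a part of it. The OMT-like primer thus encodes a run of 6 residues that OMT5 holds too, and how far the probes of either probe set bind the transcript of the other was not tested.

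Signals are RMA values on the log2 scale, so a difference of 1 is a doubling. The background of each array was taken as the 95th percentile of its 23394 probe sets for soybean pathogens, and it lay between 3.54 and 3.78. Of the 5 O-methyltransferase probe sets, 4 were above it on all 6 arrays. Signals of different probe sets are not set against each other, since probes differ in how well they bind.

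OMT5 was higher in every black plant than in any brown plant. Its signals were 10.10, 9.84 and 9.97 in black plants 1, 2 and 3, against 8.90, 8.32 and 8.78 in brown plants 1, 2 and 3. The means were 9.97 ± 0.13 in black and 8.66 ± 0.31 in brown seed coats (SD, n = 3 each). The log2 difference was 1.31, a signal 2.48-fold higher in black. The lowest black plant lay 0.95 above the highest brown plant on the log2 scale. The black plants spanned a range of 0.26 and the brown plants one of 0.58.

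OMT-like showed a difference of nearly the same size. The arrays gave 9.95, 9.46 and 9.94 in black plants 1, 2 and 3, against 8.45, 8.27 and 8.52 in brown plants 1, 2 and 3. The means were 9.78 ± 0.28 in black and 8.41 ± 0.13 in brown seed coats (SD, n = 3 each), with a log2 difference of 1.37 and a signal 2.58-fold higher in black. The genotypes did not overlap, and the smallest gap between them was 0.94 on the log2 scale. The black plants of OMT-like were spread over 0.49, and the brown plants over 0.25, whereas for OMT5 the brown plants were the more spread. With whole seed coats, more cells that hold a transcript and more transcript per cell cannot be told apart.

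**Figure D1:**
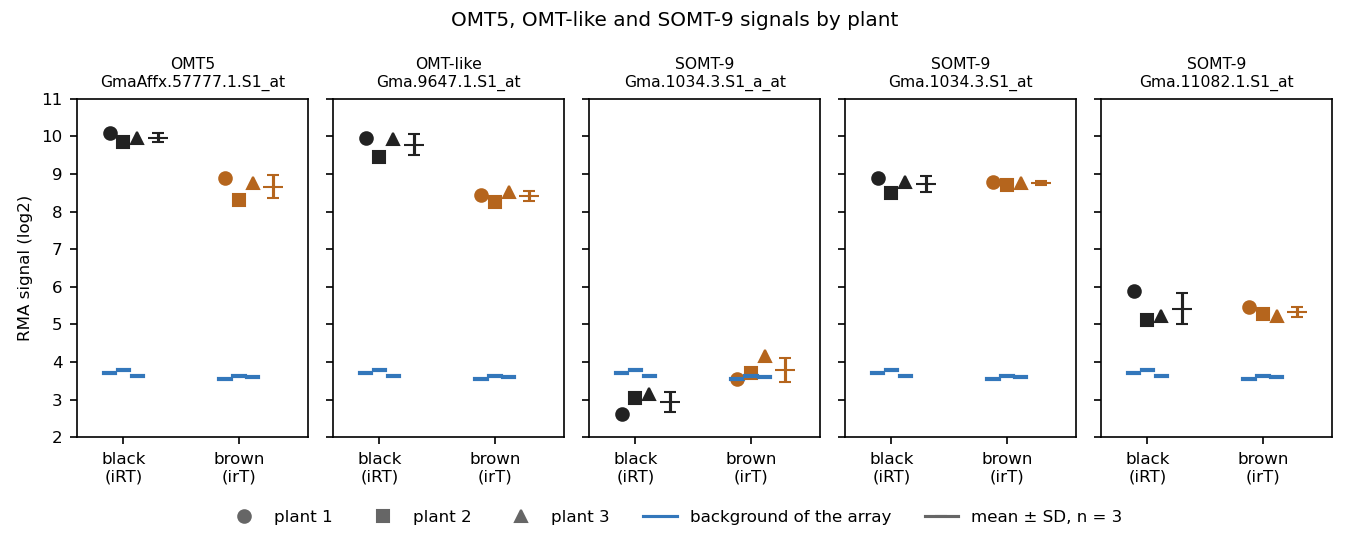
RMA signal (log2) of the 5 O-methyltransferase probe sets in each of 3 black (iRT) and 3 brown (irT) plants, with symbols for the plant numbers, the mean ± SD beside them and a short blue line for the background of each array. OMT5 and OMT-like lie between 9.46 and 10.10 in black and between 8.27 and 8.90 in brown plants, while the SOMT-9 probe set Gma.1034.3.S1_at overlaps between genotypes.

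A place among all probe sets can be given for both. Of the 37641 soybean probe sets, 214 had a larger log2 difference than OMT5 and 193 a larger one than OMT-like. In 5.74% of soybean probe sets (2159) every black plant lay above every brown plant. A choice by fold and p on these plants favours such probe sets, so nothing is read from the lack of overlap or the size of the gap.

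**Figure D2:**
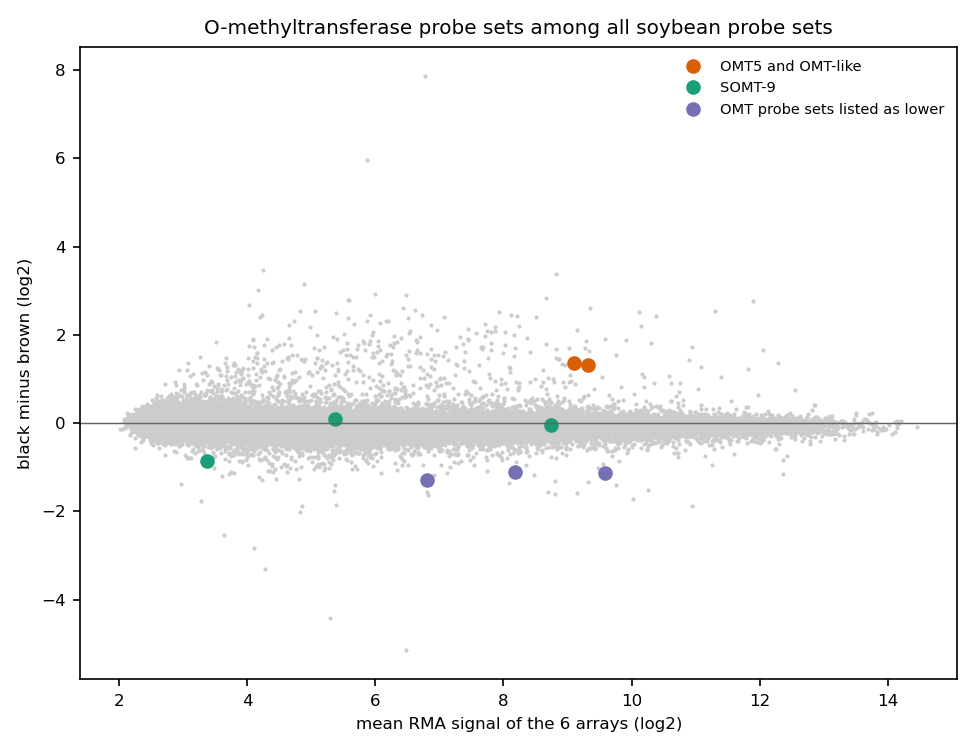
Black minus brown difference (log2) against the mean RMA signal (log2) of the 6 arrays for all 37641 soybean probe sets (grey points). OMT5 and OMT-like (orange) lie at 1.31 and 1.37, the SOMT-9 probe sets (green) between -0.86 and 0.09, and 3 O-methyltransferase probe sets listed as lower by the study (violet) between -1.29 and -1.11.

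None of the 3 SOMT-9 probe sets passed the test between genotypes. They were tested with limma, a linear model with moderated variances, two-sided, with Benjamini-Hochberg adjustment over all soybean probe sets and a threshold of 0.05. By this test 0.109% of soybean probe sets (41) were called, 0.0664% (25) as risen and 0.0425% (16) as fallen. The share of rises depended on the scaling, with 33 risen and 13 fallen after cyclic loess and 39 and 17 after median centring. With shares as small as these, 0 of 3 does not set SOMT-9 apart from other genes. At an unadjusted p under 0.05 there was 1 of the 3, against 8.32% of soybean probe sets (3131). SAM, the statistic used by the study, also called 0 at the adjusted threshold. With 3 plants in each group its adjusted p as computed here cannot go below 0.1, so its count says nothing about any gene here. The study called probe sets by fold change and a p-value from SAM, which it describes as including an estimate of the false discovery rate. No adjustment is stated for that p-value, so its threshold is a different one.

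Gma.1034.3.S1_at was well above background in every plant. It measured 8.90, 8.49 and 8.80 in black plants 1, 2 and 3, against 8.80, 8.72 and 8.77 in brown plants 1, 2 and 3. The log2 difference was -0.03 (95% interval -0.32 to 0.25, limma adjusted p = 0.961). All 3 brown plants lay inside the range of the black plants, and the interval leaves out a difference of the size that OMT5 showed. Its direction was not stable, since median centring of the arrays gave 0.01.

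Gma.11082.1.S1_at overlapped as well. Its signals were 5.89, 5.13 and 5.23 in black plants 1, 2 and 3, against 5.48, 5.27 and 5.24 in brown plants 1, 2 and 3. Black plant 1 stood above the others, and the log2 difference of 0.09 (95% interval -0.39 to 0.57, limma adjusted p = 0.932) turned to -0.15 without it.

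Gma.1034.3.S1_a_at was dim. The ending _a_at marks a probe set whose probes match several transcripts of 1 gene. It measured 2.62, 3.04 and 3.14 in black plants 1, 2 and 3, against 3.54, 3.70 and 4.15 in brown plants 1, 2 and 3. No black plant was above background, and brown plants 2 and 3 were, so the black signal is only a bound. Brown plant 1 did not exceed its background either, so no fold is given. The measured means were 2.94 ± 0.28 in black and 3.80 ± 0.32 in brown (SD, n = 3 each, limma adjusted p = 0.348). The measured log2 difference was -0.86 (95% interval -1.33 to -0.40), and it rests on black signals below background. The genotypes did not overlap here, as in 8.3% of soybean probe sets (3123) with every black plant below every brown plant. With the 99th percentile as background, no plant was above it.

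The 3 probe sets belong to 1 gene and yet gave log2 differences from -0.86 to 0.09. The value at the lower end is that of the dim probe set, which was above background on 2 of 6 arrays.

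The study also listed 3 probe sets described as O-methyltransferases as lower in the black seed coat, and these are given as a description in the same way. GmaAffx.93221.1.S1_s_at is similar to OOMT, the orcinol O-methyltransferase that makes scent compounds in roses, and is annotated to the gene LOC100808660. Its signals were 6.66, 5.37 and 6.46 in black plants 1, 2 and 3, against 7.73, 6.91 and 7.71 in brown plants 1, 2 and 3. The log2 difference was -1.29, and the closest black and brown plants were 0.25 apart on the log2 scale. The ending _s_at marks probes shared by several genes, so the level of a single gene cannot be read from it.

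Gma.4340.2.S1_a_at, described as related to a flavonoid O-methyltransferase of poplar, had 7.96, 6.98 and 7.91 in black plants 1, 2 and 3, against 8.87, 8.20 and 9.13 in brown plants 1, 2 and 3, a log2 difference of -1.11. GmaAffx.34657.1.A1_s_at, described as related to hydroxyindole-O-methyltransferase, had 9.21, 8.50 and 9.33 in black plants 1, 2 and 3, against 10.28, 9.67 and 10.48 in brown plants 1, 2 and 3, a log2 difference of -1.13. This probe set too ends in _s_at, so the level of a single gene cannot be read from it. Hydroxyindole-O-methyltransferase is the enzyme of animals that completes melatonin, and plant proteins carry the name by sequence likeness. Neither probe set overlapped between the genotypes. In 8.3% of soybean probe sets (3123) every black plant lay below every brown plant. The choice by the study on these plants favours such probe sets, so nothing is read from the lack of overlap.

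These 3 probe sets had similar patterns over the 6 plants. After the mean over the plants was taken off each, the flavonoid and hydroxyindole probe sets differed by a root mean square of 0.09 on the log2 scale, the OOMT-like and flavonoid ones by 0.15, and the OOMT-like and hydroxyindole ones by 0.20. OMT5 and OMT-like differed by 0.16 in the same measure. The measure keeps the step between genotypes by which the study picked these probe sets, so part of the nearness follows from that choice. With the mean of each genotype taken off instead, the 3 pairs differed by 0.09, 0.12 and 0.18 in the same order. OMT5 and OMT-like then differed by 0.15, and OMT-like and the hydroxyindole probe set, which differ in direction, by 0.20. Whether the probes of the 3 lower sets are bound by the same transcripts was not tested.

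**Figure D3:**
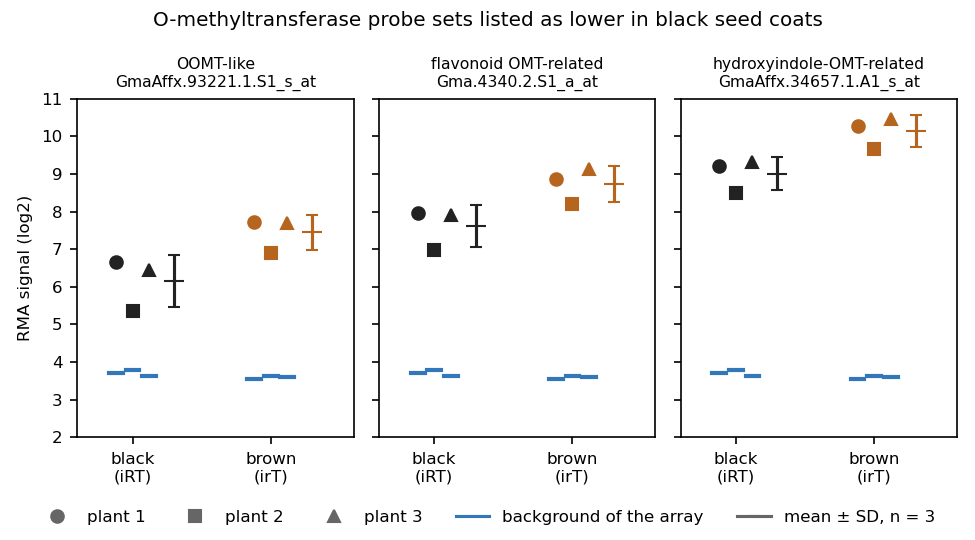
RMA signal (log2) of the 3 O-methyltransferase probe sets listed as lower by the study, in each of 3 black (iRT) and 3 brown (irT) plants, with the mean ± SD and the background of each array (blue). Every black plant lies below every brown plant in each probe set, as in 8.3% of soybean probe sets (3123). Plant 2 is the lowest of its genotype throughout.

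Plants of the same genotype differed in a repeated way. Plant 2 was the lowest of the 3 in both genotypes for OMT5, OMT-like, the SOMT-9 probe set Gma.1034.3.S1_at and all 3 lower probe sets. This held in 19.5% of soybean probe sets (7332). It did not hold for Gma.1034.3.S1_a_at, where plant 1 was lowest in both genotypes. Nor did it hold for Gma.11082.1.S1_at, where plant 3 was the lowest brown plant. The arrays of plant 2 had the highest background of their genotype, at 3.78 in black and 3.64 in brown. In black the array of plant 2 also had the lowest median soybean signal (5.76), whereas in brown that of plant 3 was lowest (5.81). With 1 array for each plant, a plant and its array cannot be told apart. Black plant 2 lay 0.13 below the black mean for OMT5 (deviation -0.13), against a deviation of -0.35 for brown plant 2 from the brown mean. For OMT-like the deviations were -0.32 in black plant 2 and -0.14 in brown plant 2. The OOMT-like probe set had the widest, at -0.79 in black plant 2 and -0.54 in brown plant 2. Without black plant 2 its log2 difference was -0.89, and without brown plant 2 it was -1.56. Leaving out any 1 plant gave log2 differences from 1.14 to 1.42 for OMT5 and from 1.28 to 1.53 for OMT-like.

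**Figure D4:**
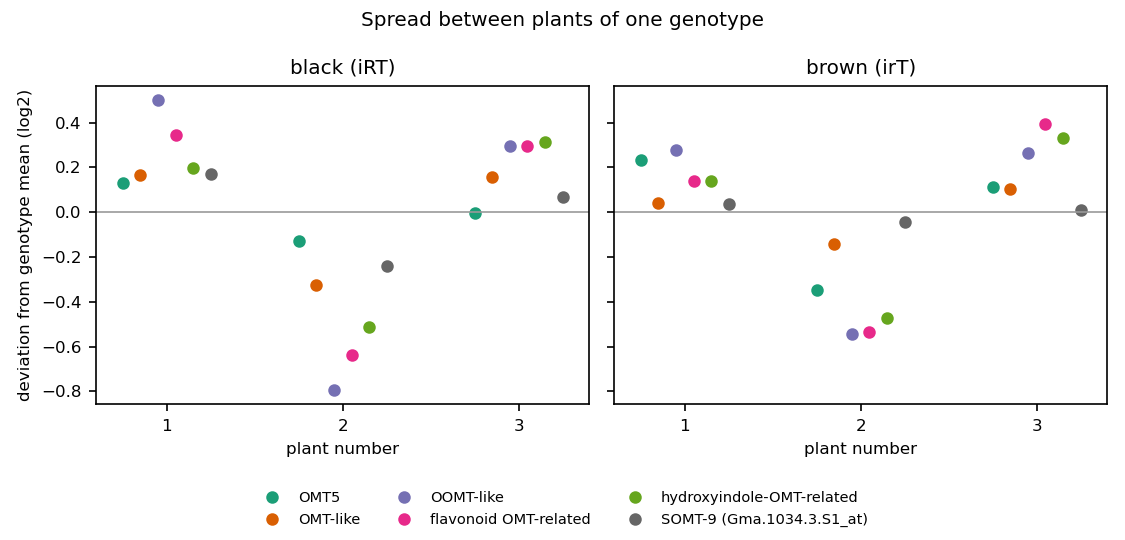
Deviation of each plant from the mean of its genotype (log2), for OMT5, OMT-like, 1 SOMT-9 probe set and the 3 O-methyltransferase probe sets listed as lower, with black (iRT) plants on the left and brown (irT) plants on the right. Plant 2 lies below 0 for all of them in both genotypes, by 0.79 for the OOMT-like probe set in the black plant (deviation -0.79).

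A further O-methyltransferase was found through the gene table, where LOC100813225 has the synonym iomt2, the name of an isoflavone O-methyltransferase. Its probe set Gma.7727.1.A1_at measured 2.18, 2.15 and 2.30 in black plants 1, 2 and 3, against 2.16, 2.15 and 2.15 in brown plants 1, 2 and 3. All lay below background, so no fold is given (limma adjusted p = 0.885). With SOMT-9 it makes a list of 4 probe sets named as O-methyltransferases, of which limma called 0, against 0.109% of soybean probe sets. At a limma unadjusted p under 0.05 there was 1, against 8.32% of soybean probe sets. The median log2 difference of the 4 was 0.01, against -0.02 over all soybean probe sets. Most soybean probe sets (28594) carry no symbol here, so other O-methyltransferases of the array can be missing from this list.

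For the enzymes that supply the methyl group, 2 probe sets were found by their symbol. Limma called neither, with 0 at an unadjusted p under 0.05. Most soybean probe sets (28594) carry no symbol, so other enzymes of this supply can be missing here. MAT1, a methionine adenosyltransferase that makes S-adenosylmethionine, measured 4.29, 3.64 and 3.46 in black plants 1, 2 and 3, against 3.20, 3.76 and 3.10 in brown plants 1, 2 and 3. The log2 difference was 0.44 (95% interval -0.15 to 1.04, limma adjusted p = 0.685), and only black plant 1 and brown plant 2 were above background, so this value is uncertain. It was 0.20 without black plant 1 and 0.07 with the mean of the embryo markers as a covariate. MS, methionine synthase, measured 4.98, 4.28 and 4.76 in black plants 1, 2 and 3, against 4.50, 4.55 and 4.49 in brown plants 1, 2 and 3 (log2 difference 0.16, 95% interval -0.25 to 0.57, limma adjusted p = 0.835). The genotypes overlapped in both.

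Of the pathways that feed these enzymes, the flavonoid and anthocyanin list held 55 probe sets, of which 4 rose and 3 fell by limma. Over all soybean probe sets, 0.0664% rose and 0.0425% fell. At a limma unadjusted p under 0.05 there were 17 of the 55, against 8.32% of soybean probe sets. The list's median log2 difference was 0.11. ANS2, anthocyanidin synthase, averaged 13.3 ± 0.05 in black and 10.5 ± 0.35 in brown seed coats (SD, n = 3 each, limma adjusted p = 0.00261). DFR2, a dihydroflavonol reductase one step earlier, averaged 8.85 ± 0.14 in black, while no brown plant exceeded background, which makes it at least 38.2-fold higher in black (limma adjusted p = 1.18e-05). CHS1, a chalcone synthase at the entry of the pathway, averaged 3.91 ± 0.28 in black and 9.06 ± 0.21 in brown on Gma.17605.1.S1_at (SD, n = 3 each, limma adjusted p = 7.5e-05). GmaAffx.92491.1.S1_s_at, annotated as CHS1 and called CHS9 by the study, has probes shared by several genes. It exceeded background in no black plant and averaged 7.51 ± 0.15 in brown, which puts it at least 14.0-fold lower in the black coat (limma adjusted p = 2.17e-05). The study picked several probe sets of this list on these plants, so its counts are not independent evidence of a direction.

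The phenylpropanoid and monolignol list, which holds the steps around caffeoyl-CoA, had 1 of 21 probe sets risen and 0 fallen, with a median log2 difference of 0.04. Over all soybean probe sets, 0.0664% rose and 0.0425% fell. At a limma unadjusted p under 0.05 there were 2 of the 21, against 8.32% of soybean probe sets. The one that rose was 4CL4, a 4-coumarate-CoA ligase that the study calls 4CL2, which makes the CoA esters that caffeoyl-CoA O-methyltransferases use. It had 6.92, 7.26 and 6.85 in black plants 1, 2 and 3, against 5.93, 5.68 and 5.88 in brown plants 1, 2 and 3 (log2 difference 1.18, 95% interval 0.86 to 1.50, limma adjusted p = 0.0460). Unlike OMT5 and OMT-like, 4CL4 was highest in black plant 2 of the 3 black plants. It was no longer called when any 1 of the 6 plants was left out (limma adjusted p from 0.0696 to 0.213) or with the mean of the embryo markers as a covariate (0.186). The study also picked 4CL4 on these plants, so its call is not independent evidence.

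The probe sets whose pattern over the 6 plants was most like OMT5 were found by the root mean square difference of the log2 signals, after the mean over the plants was taken off. This is a description, since most of the likeness lies in the difference between the genotypes. The 5 nearest with a single symbol were LOC100816033 (0.16), LOC100787440 (0.20), 4CL4 (0.22), LOC100527230 (0.23) and LOC100781793 (0.24). For OMT-like they were LOC100816033 (0.20), LOC100787440 (0.25), LOC100527230 (0.26), LOC100305397 (0.26) and LOC100816294 (0.28). The lists share 3 genes. Their log2 differences ran from 0.85 for LOC100305397 to 1.61 for LOC100787440.

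OMT5 and OMT-like were near neighbours of each other. Among the 37640 other soybean probe sets, OMT-like was number 3 in nearness to OMT5 and OMT5 was number 4 in nearness to OMT-like. Number 2 in nearness to OMT-like, at 0.12, was Gma.1002.2.S1_at, the probe set of UGT78K1, a glucosyltransferase of anthocyanins. It has no symbol in the annotation of the array and was singled out after its values were seen. UGT78K1 was number 27 in nearness to OMT5, at 0.26, and its log2 difference was 1.49. The study picked UGT78K1, OMT5 and OMT-like by the same contrast.

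The labelled tissue was checked through its markers. HPS, SCB1 and Ep, a hydrophobic surface protein, a BURP-domain protein and the seed coat peroxidase, were taken as markers of the seed coat. All 3 were above background in all 6 plants, at 11.01 to 14.07 in black and 10.91 to 14.16 in brown plants. Limma called 0 of 3, with 0 at an unadjusted p under 0.05. Whether the HPS transcript came from the seed coat itself was not tested. Markers of the embryo were present too. Over 52 probe sets of storage and maturation proteins, 35 of them above background on all arrays, the mean signal was 8.52, 7.44 and 6.22 in black plants 1, 2 and 3, against 6.45, 7.02 and 5.89 in brown plants 1, 2 and 3. The genotypes overlapped, the median log2 difference of these probe sets was 1.09, and limma called 0 of them (4 at an unadjusted p under 0.05). With the embryo mean of each plant as a covariate, chosen after seeing the data, the log2 difference was 1.34 for OMT5 and 1.41 for OMT-like. For the 3 lower probe sets it was -1.21 (OOMT-like), -0.97 (flavonoid) and -0.95 (hydroxyindole).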

How the data were processed

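Total RNA of 3 black (iRT) and 3 brown (irT) seed coats was labelled by in vitro transcription and hybridized to Affymetrix Soybean Genome Arrays. The authors adjusted the scans for background, normalized the 6 arrays together and summarised the probes by RMA, and they deposited 1 log2 value for each probe set and plant. The software version is not given in the sources used here. RMA sets the arrays to 1 common distribution, so a shift of all transcripts cannot be seen. The authors also deposited tables of their own fold changes, scores and p-values, which were not used. Only 6 arrays were made, which limits the precision, and p-values measure the spread between these plants.

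The comparison of genotypes used the moderated two-sided test of limma (version 3.58.1, R 4.3.3, default lmFit and eBayes) and Benjamini-Hochberg adjustment over 37641 soybean probe sets, and the code was tested on simulated data. A single gene symbol was given for 8677 of them, more than 1 for 370, which were left unnamed, and none for 28594. OMT5 and OMT-like were identified by the study. Synonyms came from the RefSeq table of Glycine_max_v4.0, whose coordinates were not used. A bound was computed against the mean, over the dim arrays, of the higher of background and signal.

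The members and gene lists were chosen with earlier results of these data known. Named were all members, the 3 probe sets listed as lower, further O-methyltransferases, the methyl donor enzymes, up to 4 called probe sets in each other list, and the 5 nearest patterns with a symbol. Alternatives were each plant left out, the plant number as a block, median centring, cyclic loess, pathogen probe sets added to the adjustment, dim probe sets removed, trend and robust options of limma, SAM over the 20 assignments of plants, a 99th percentile for background and, added after seeing the data, the embryo covariate. Figures were drawn with matplotlib 3.10.9.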

Additional observations from a re-analysis of the deposited data

How the results depend on the processing

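The log2 differences of OMT5 (1.14 to 1.42) and OMT-like (1.28 to 1.53) moved by less than the pooled SD between plants (0.23 and 0.22) in each of the 10 alternatives run, and no alternative called a SOMT-9, O-methyltransferase or methyl donor probe set. The sign of 2 flat SOMT-9 probe sets turned. Gma.1034.3.S1_at gave 0.014 with median centring, 0.0031 with cyclic loess and -0.12 to 0.086 with 1 plant left out, and Gma.11082.1.S1_at gave -0.13 with the embryo covariate and -0.15 to 0.23 with 1 plant left out. SAM called 0 flavonoid and 0 phenylpropanoid probe sets, and 0 of all, which the design fixes, since its adjusted p cannot go below 0.1 with these plants. The phenylpropanoid call was also lost (0) with the embryo covariate and with any 1 plant left out (0 to 0). Over all soybean probe sets, 41 calls (25 risen, 16 fallen) became 13 to 33 with 1 plant left out and 26 with the embryo covariate, and the trend and robust options gave 40 risen and 20 fallen. The background of 3.65 became 4.40 at the 99th percentile, where Gma.1034.3.S1_a_at was above it on 0 arrays in place of 2. Deviations of same-numbered plants were correlated at 0.092, 0.29 and 0.50 over soybean probe sets, and 5 of 6 arrays correlated best with their own number. This is a hint from the data that plants of 1 number share something. The study collected the seed coats to be compared on the same days, but the labels do not tie a plant number to a day. Since the labels give no pairs and not every correlation was over 0.1, plants were not paired in the report. With that number as a replicate block, the log2 differences were 1.31 for OMT5 and 1.37 for OMT-like, 0 SOMT-9, 7 flavonoid and 0 phenylpropanoid probe sets were called (4CL4 adjusted p = 0.204), and 23 of all.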
